A study of Saccharomyces cerevisiae with 16 samples.

Results

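Big yeast microcolonies, sorted by size out of alginate particles, were compared with particles taken from the same kind of preparation without sorting. The comparison used 6 of the 16 libraries of the series, chosen by their labels: 3 of big sorted colonies (called big 1 to 3) and 3 of unsorted particles (called unsorted 1 to 3). The 6 libraries shared the strain and the medium, YPD with glucose, at 30 °C. The strain, BY4741, is a laboratory haploid that mates as an a cell and carries the mutations his3, leu2, ura3 and met15. Single cells had been enclosed in alginate particles, had divided there into small clonal colonies, and had been fixed with ethanol. The big colonies were then collected on a BioSorter, a flow cytometer for large particles, and the unsorted particles were not. An unsorted sample holds colonies of every size, big ones included, so part of it is of the kind collected in the other group. The size limits of the sort, the number of colonies per sample and the days of the cultures were not given in the sources used here.

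Cells of one clone do not divide at one rate, and the size of a microcolony reflects how fast its founder and the founder's offspring divided. In budding yeast, division rate and nutrient supply are tied to large groups of genes. Genes for ribosomal proteins and ribosome assembly are high in fast-growing cells, while genes of the general stress response are high in slow-growing ones. Genes for respiration, fatty acid breakdown and growth on ethanol are held off as long as glucose is plentiful and are switched on, through regulators such as Adr1, when it runs out. Genes for phosphate uptake and storage are switched on by Pho4 when phosphate falls short, and genes for iron uptake by Aft1 when iron falls short.

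The assay, 3′T-fill, sequences the end of each messenger RNA at its poly(A) tail, so that 1 tag stands for 1 sequenced RNA end and gene length does not enter the count directly. Libraries held 4750543, 1506960 and 3003795 tags in unsorted 1 to 3 and 3238402, 4261351 and 3103727 tags in big 1 to 3. Between 94.3% and 95.7% of the tags lay in or just after a protein-coding gene on its own strand. The strain's markers were as the genotype states for MET17, the gene mutated in met15 strains, which had 0 tags in each of the 6 libraries. LEU2 had 0 to 7 tags per library, and URA3 19 to 83. HIS3, whose allele in this strain keeps part of the gene, had 506 to 831 tags. The 7 a-cell genes fixed as markers were detected in each library, at a summed 416 to 600.3 CPM (tags of a gene as counts per 1e6 gene tags, with TMM scaling of library sizes) in unsorted particles and 572 to 1079 CPM in big colonies. The 4 alpha-cell markers summed to 3.21 to 13.5 CPM in unsorted particles and 0.26 to 12.2 CPM in big colonies. Markers of sporulating cells summed to at most 30.8 CPM in any of the 6 libraries. The labels call the libraries of a group biological replicates without saying what was shared between them, so p-values below measure the spread between these samples. In such bulk samples, fewer cells of a type and less RNA per cell cannot be told apart.

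No gene passed the adjusted threshold between big colonies and unsorted particles. Of 5071 genes tested with edgeR's quasi-likelihood test on these 6 libraries, 0 passed a Benjamini-Hochberg adjusted p of 0.05, a share of 0.0%, and the smallest adjusted p was 0.9999. At an unadjusted p under 0.05 there were 138 genes, 72 higher and 66 lower in big colonies, or 2.72% of the genes tested. With no difference at all a share of 0.05 would be reached, so this count is no excess. DESeq2 called 0 genes as well, with 165 at an unadjusted p under 0.05, and limma-voom called 0, with 153. The median log2 fold change over all genes was 0.01.

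The precision of the comparison sets what this null result can cover. A gene's 95% confidence interval reached a median of 0.96 to either side on the log2 scale. For 1193 of the 5071 genes (23.5%) the whole interval lay within a 2-fold change in either direction, and for 4166 (82.2%) within a 4-fold change. Among the 1533 genes with a mean of at least 100 CPM, those shares were 48.6% and 96.2%. A change under 2-fold was therefore not detectable for most genes at this spread, while a change over 4-fold lay outside the interval for most. Within a group the libraries were spread well beyond counting error: chi-square per degree of freedom ran from 40.2 to 109 within the groups, where counting error alone gives about 1. Correlations of log2 CPM across genes were 0.863 to 0.932 within the unsorted group, 0.884 to 0.937 within the big group and 0.867 to 0.952 between the groups, so the 3 ranges overlapped.

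**Figure D1:**
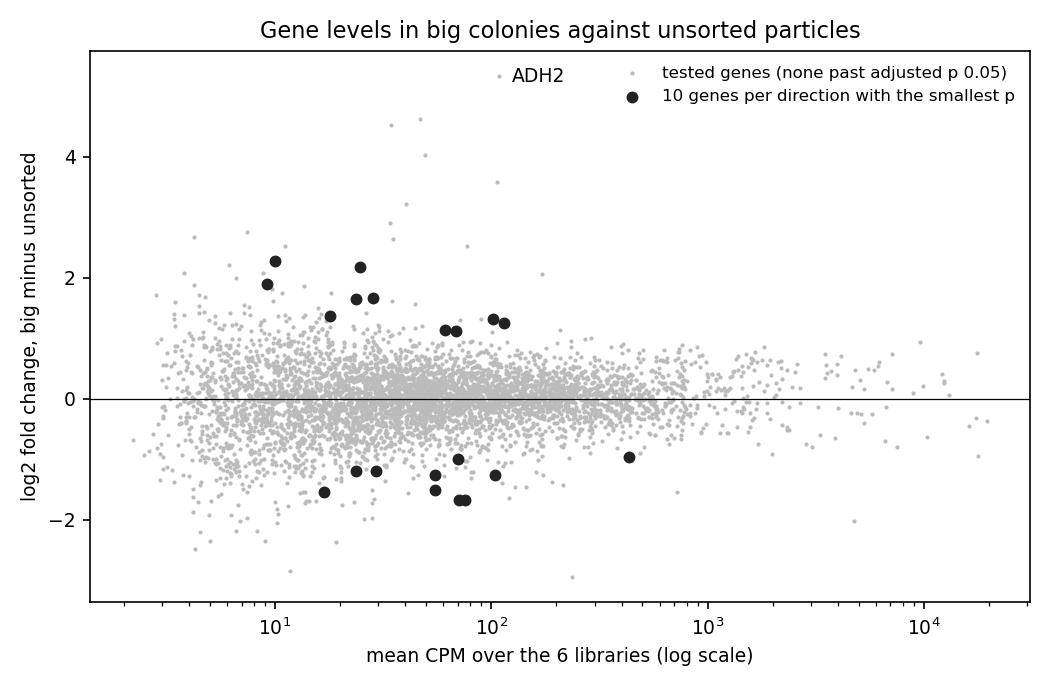
Log2 fold change of big colonies over unsorted particles (vertical) against the mean level over the 6 libraries in CPM (horizontal, log scale), 1 point per tested gene. Black points mark the 10 genes per direction with the smallest p, and ADH2, at 5.34, is the highest point; none of the 5071 genes passed the adjusted threshold.

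A second way to read the same libraries is to ask where the groups did not overlap. All 3 big libraries lay above all 3 unsorted libraries for 214 genes (4.22%), and below them for 166 genes (3.27%). Neither share exceeds what a random split of the libraries into 3 and 3 would give. These shares are the background for the counts that follow. The 20 genes below are the 10 per direction with the smallest p among genes with a mean of at least 5 CPM. They are given as values, since none passed the threshold (edgeR, adjusted p = 0.9999 for each). Picking them by p from these same libraries favours genes whose groups do not overlap, so their separation is no further result.

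POP6 encodes a subunit shared by RNase MRP and RNase P, the enzymes that process ribosomal RNA and tRNA precursors. Its level was 12.9, 14.4 and 13.5 CPM in unsorted 1 to 3 and 55.6, 31.8 and 41.7 CPM in big 1 to 3, a log2 fold change of 1.66 ± 0.42 (SE, n = 3 and 3) with a 95% interval of 0.75 to 2.58. The 3 unsorted values lay close together, and each big value was more than 2-fold above them. CWP1 encodes a mannoprotein of the cell wall. CWP1 stood at 59.2, 75.4 and 40.2 CPM in unsorted particles and at 178, 115 and 142 CPM in big colonies (log2 fold change 1.32 ± 0.35, SE), again with no overlap. PST2, a flavodoxin-like protein of the response to oxidants, measured 37.8, 33.9 and 42.2 CPM against 97.5, 80.5 and 73.7 CPM in big colonies (1.14 ± 0.33, SE). APD1 (1.26) and MRX3, a mitochondrial protein (1.12), showed the same separation without overlap.

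The rest of the 10 higher genes were low in level, with means of at most 24.8 CPM, and POP6, at a mean of 28.3 CPM, was little higher. CTA1 encodes the peroxisomal catalase and FOX2 an enzyme of peroxisomal fatty acid oxidation. CTA1 was at 7.18, 11.9 and 8.24 CPM in unsorted particles and at 89.5, 15.6 and 16.5 CPM in big colonies. FOX2 was at 13.4, 8.47 and 12.2 CPM against 62.2, 26.8 and 19.5 CPM. In both genes the groups did not overlap, and big 1 was far the highest: the log2 fold change went from 2.19 to 0.84 for CTA1 and from 1.64 to 0.99 for FOX2 without that library. GDH2, the glutamate dehydrogenase that releases ammonia, differed by 1.89, SMF1, a manganese transporter, by 1.37, and DMC1, a recombinase of meiosis, by 2.28 on the log2 scale. GDH2 and DMC1 had means of 9.15 and 10.02 CPM.

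Among the genes lower in big colonies, NEW1 had the smallest p of all genes tested. NEW1 encodes an ATP-binding protein that acts in translation. It stood at 168, 114 and 65.3 CPM in unsorted 1 to 3 and at 37.6, 31.3 and 39.3 CPM in big 1 to 3, a log2 fold change of -1.68 ± 0.39 (SE) with a 95% interval of -2.55 to -0.82. The value was -0.46 when tags were counted no further than 200 nt past the ORF. The big values lay within a narrow band, and the unsorted values spread from unsorted 3 up to unsorted 1. BNI1, the formin that nucleates actin cables at the bud, was at 115, 50.8 and 67.2 CPM against 30.3, 31.0 and 36.4 CPM (-1.27 ± 0.39, SE). SAH1, the hydrolase that clears S-adenosylhomocysteine, was the most abundant of these genes, at 515, 614 and 584 CPM against 200, 315 and 363 CPM (-0.96 ± 0.31, SE). In NEW1, BNI1 and SAH1 the groups did not overlap.

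ROT2, the catalytic subunit of glucosidase II, differed by -1.54 and HMT1, an arginine methyltransferase, by -1.20. VMR1, a vacuolar ABC transporter, differed by -0.99 and IRC5, a putative ATPase of the Swi2/Snf2 family, by -1.19. These 4 showed no overlap either. ACS2, an acetyl-CoA synthetase, was at 154, 59.3 and 30.3 CPM in unsorted particles and at 27.6, 29.7 and 28.8 CPM in big colonies (-1.51 ± 0.53, SE). The lowest unsorted value of ACS2 lay just above the highest big value, and its direction turned, to 0.41, with the window of 200 nt, and the value was -0.65 without unsorted 1. SIT1, a siderophore transporter, and RSN1 had overlapping groups.

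**Figure D2:**
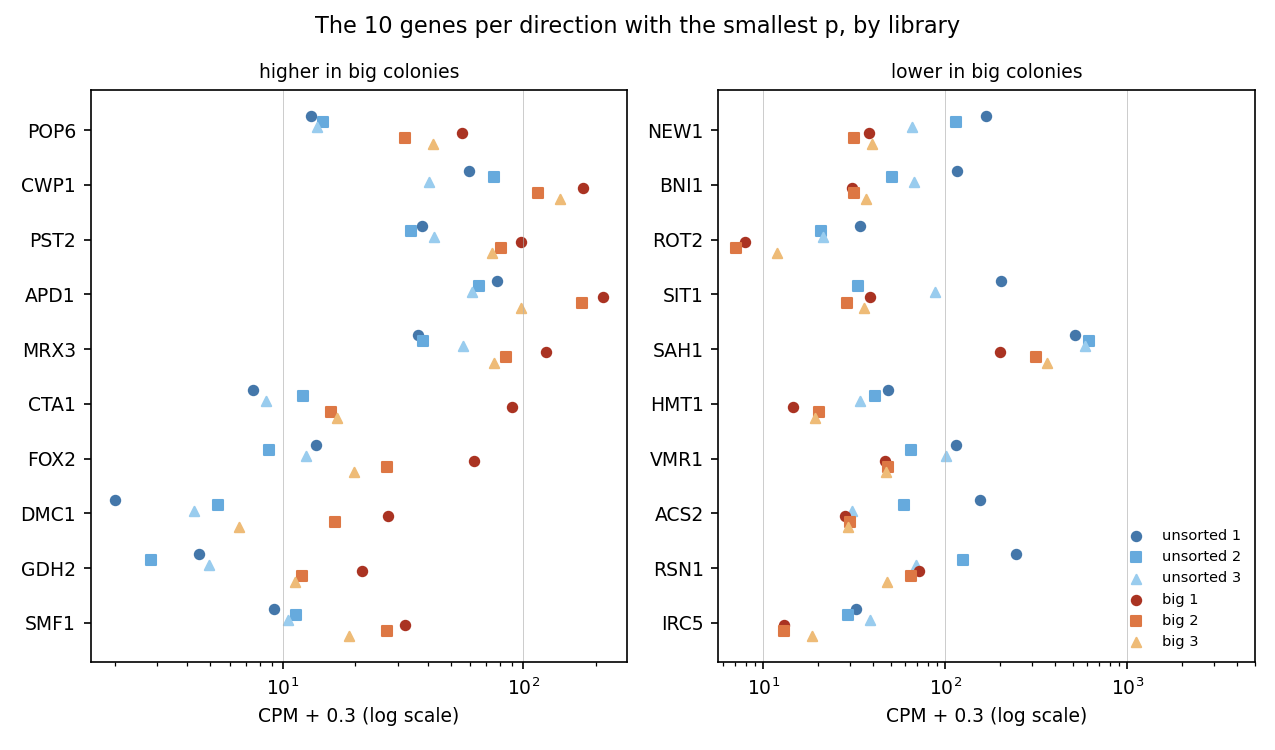
Level of the 10 genes per direction with the smallest p, in CPM plus 0.3 on a log scale, 1 symbol per library (blue for unsorted particles, red and orange for big colonies). In 18 of the 20 genes all 3 big symbols lie to one side of all 3 unsorted symbols. Picking the genes by p from these same libraries favours such separation. SIT1 and RSN1 overlap, and for CTA1 and FOX2 big 1 lies far to the right of the other libraries.

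The growth-related lists were read by their counts and medians beside those of all genes. Of 137 ribosomal protein genes tested, 122 were higher in the mean of big colonies, with a median log2 fold change of 0.44 against 0.01 for all genes. Without overlap, 10 were higher (7.30% of the list, against 4.22% of all genes) and 0 lower. Their summed level was 144152, 251489 and 118939 CPM in unsorted 1 to 3 and 254815, 285321 and 199412 CPM in big 1 to 3. The groups overlapped in this sum, since unsorted 2 lay above big 3. The median depended on single unsorted libraries: it was 0.96 without unsorted 2, 0.22 without unsorted 3 and 0.26 without unsorted 1. RPL20B and RPP2A, a protein of the large subunit and one of its stalk, had the smallest p of the list. RPL20B was at 194, 320 and 250 CPM against 420, 568 and 385 CPM in big colonies (0.85 ± 0.31, SE), and RPP2A at 263, 405 and 275 CPM against 470, 666 and 504 CPM (0.80 ± 0.31, SE). Many ribosomal protein genes exist as near-identical pairs, which can share tags, and their single values are less certain.

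Of 141 ribosome assembly genes tested, 48 were higher and 93 lower in the mean of big colonies, with a median of -0.11. Without overlap, 0 were higher and 7 lower (4.96% of the list, against 3.27% of all genes). UTP22, a component of the small subunit processome, was at 73.1, 56.7 and 49.1 CPM in unsorted particles and at 16.6, 27.9 and 37.7 CPM in big colonies (-1.12 ± 0.41, SE). The sign of this list's median was not stable: it was 0.06 without big 1 and 0.04 without unsorted 2. Translation factors had a median of -0.13 over 30 genes (0.01 without unsorted 2). RNA polymerase I had a median of -0.05 over 12 genes (0.05 without big 3). Of these 12, 0 were higher and 0 lower without overlap, beside 4.22% and 3.27% of all genes, too few genes to differ from those shares.

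Most genes of 2 mitochondrial lists had higher means in big colonies. Of 77 genes of the mitochondrial ribosome, 53 were higher, with a median of 0.16 (0.02 without big 2 and 0.06 without unsorted 2). Without overlap, 4 were higher (5.19%, near the 4.22% of all genes) and 0 lower. Of 37 genes of the respiratory chain and ATP synthase, 26 were higher, with a median of 0.21. In that list 7 genes (18.9%, against 4.22% of all genes) were higher without overlap and 1 was lower (2.70%, against 3.27%). COX4, a subunit of cytochrome c oxidase, was at 45.4, 38.1 and 57.7 CPM against 79.5, 70.6 and 98.2 CPM (0.81 ± 0.34, SE). ATP1, the alpha subunit of the ATP synthase, went the other way, at 24.8, 49.95 and 32.0 CPM against 12.3, 2.08 and 18.2 CPM (-1.70 ± 0.67, SE). Of 5 length classes of about equal size, described next, the shortest held 47 of the 137 ribosomal protein genes, 38 of the 77 mitochondrial ribosome genes and 25 of the 37 respiratory chain genes, and the longest held 0 of each.

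The difference between the groups moved with ORF length. When the 5071 genes were split by ORF length into 5 classes of about equal size, the median log2 fold change was 0.18 in the shortest class (78 to 678 nt), then 0.10, 0.02 and -0.11, and -0.17 in the longest (2139 to 14733 nt). Of the genes higher in all 3 big libraries, 85 were in the shortest class (8.35% of it) and 9 in the longest (0.888%). Of the genes lower in all 3, 11 were in the shortest class (1.08%) and 78 in the longest (7.70%). Across genes, Spearman's rho between ORF length and log2 fold change was -0.29 (n = 5071 genes, which share libraries and are not replicates).

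The pattern was not equal in each library. The longest class deviated from the 6-library mean by a median of 0.10, 0.10 and 0.13 on the log2 scale in unsorted 1 to 3, and by 0.09, -0.23 and -0.08 in big 1 to 3. The shortest class deviated by -0.07, -0.08 and -0.11 in unsorted 1 to 3 and by 0.01, 0.25 and 0.09 in big 1 to 3. Big 2 had the strongest tilt towards short genes, whereas big 1 lay with the unsorted libraries in the longest class. The difference between the shortest and the longest class was 0.25 without big 2, the smallest value over the alternatives, and 0.52 without big 1. The share of tags inside the ORF rather than after it did not follow the tilt closely. In the longest class it was 28.4% in unsorted 1 and 53.8% in unsorted 2, with unsorted 3 just below unsorted 2. In big 1 to 3 it was 39.6%, 31.2% and 41.1%. Unsorted 1 and 2 had the same deviation in that class, 0.10, at unlike shares. Big 1 and big 3 had close shares, with deviations of 0.09 and -0.08. Counting only tags after the ORF gave a difference of 0.33 between these classes, beside 0.35 with all tags. The part of this share in the length pattern was not tested.

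**Figure D3:**
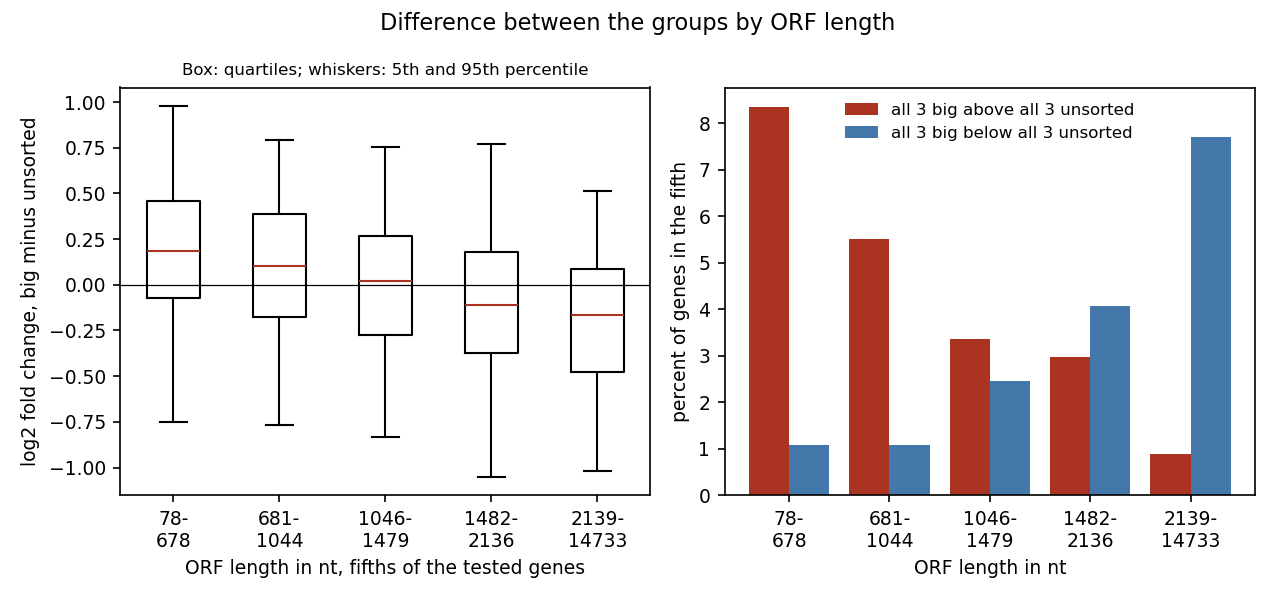
Difference between the groups by ORF length in 5 classes of the 5071 tested genes (lengths in nt on the horizontal axes). Left, log2 fold change (line at the median, box at the quartiles, whiskers at the 5th and 95th percentile), with medians falling from 0.18 to -0.17; right, percent of genes in a class with all 3 big libraries above (red) or below (blue) all 3 unsorted libraries.

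The widest single differences in the table belonged to 1 library and not to a group. A gene was taken to stand apart in a library when its log2 CPM was more than 2-fold above each of the other 5, or below each of them. Big 1 stood above for 106 genes, 22 of them by more than 4-fold, and below for 122, 23 of them by more than 4-fold. Unsorted 1 stood above for 81 genes (8 by more than 4-fold) and unsorted 2 for 71 (7 by more than 4-fold). Unsorted 3, big 2 and big 3 stood above for 18, 11 and 7 genes, with 0 of them by more than 4-fold. In the other direction, unsorted 2 stood below the other 5 for 143 genes (31 by more than 4-fold) and big 2 for 132 (24 by more than 4-fold). Unsorted 1, unsorted 3 and big 3 stood below for 57, 41 and 13 genes. The genes named from here on were picked after their values had been seen, and their values are a description.

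Big 1 carried high levels of genes that glucose represses. Of 22 such genes tested, 10 (45.5%) stood more than 2-fold above the other 5 libraries in big 1, beside 2.09% of all genes. ADH2, the alcohol dehydrogenase that turns ethanol back into acetaldehyde, was at 6.80, 7.62 and 1.65 CPM in unsorted 1 to 3 and at 619, 5.99 and 8.93 CPM in big 1 to 3. ADH2 had the largest fold change of all genes, 5.34 ± 1.92 (log2, SE), and without big 1 that value was 0.49. PCK1, which catalyses a first step of gluconeogenesis, was at 20.6, 11.9 and 15.8 CPM against 562, 17.2 and 12.2 CPM, and its log2 fold change went from 3.58 to -0.16 without big 1. For PCK1 big 2 and big 3 lay within the range of the unsorted values, and for ADH2 big 3 lay just above it.

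The same single library was high for enzymes and carriers of other non-fermentable carbon sources. JEN1, the lactate and pyruvate carrier, was at 9.45, 6.77 and 7.25 CPM in unsorted particles and at 175, 3.13 and 2.31 CPM in big colonies. POX1, the acyl-CoA oxidase that starts peroxisomal fatty acid breakdown, was at 7.56, 0 and 1.32 CPM against 254, 15.4 and 2.98 CPM. YAT1, a carnitine acetyltransferase, was at 58.6, 42.3 and 98.2 CPM against 769, 33.3 and 31.7 CPM. In JEN1 and YAT1, big 2 and big 3 lay below all 3 unsorted libraries, so the log2 fold change turned from 2.91 to -1.54 for JEN1 and from 2.06 to -1.05 for YAT1 without big 1. The median of the whole list was 0.87 with all 6 libraries and 0.00 without big 1.

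Other groups stood out in big 1 as well. Stress-induced genes had 10 of 53 members (18.9%) more than 2-fold above the other libraries, and the stationary phase list 4 of 16 (25%), beside 2.09% of all genes. The 6 markers of stationary cells fixed for the sample check summed to 54.1, 20.3 and 73.2 CPM in unsorted 1 to 3 and to 382, 27.9 and 64.5 CPM in big 1 to 3. The sum in big 1 leaned on SPG1, with 783 tags there and 136 in the other 5 libraries together. Another marker, 1 of the 6, had 0 tags in big 1, so the sum does not speak for each marker. PUT4, the proline permease, was at 192 CPM in big 1 and at 1.69 to 4.63 CPM in the other 5 libraries. HSP26, a small heat shock protein, was at 167 CPM in big 1 and at 5.29 to 11.9 CPM elsewhere among the 6. HSP26 did not stand for its list. Of 31 heat shock genes and chaperones tested, 2 (6.45%) stood more than 2-fold above in big 1 and 4 (12.9%) in unsorted 1. Some zinc-responsive genes were low in big 1: 4 of 15 (26.7%) stood more than 2-fold below the others, beside 2.41% of all genes. ZRT1, the high-affinity zinc transporter, was at 126, 74.5 and 101 CPM in unsorted particles and at 10.3, 137 and 92.9 CPM in big colonies. In a common scaling of 14 libraries of the series, ADH2 was at 645 CPM in big 1 and at 0 to 12.4 CPM in each of the other 13, batch cultures at an Abs600 of 0.5 and 2 included.

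For most of the genes that stood more than 4-fold above in big 1, the tags of that library lay after the ORF, where a transcript would end. ADH2 had 1861 tags in big 1, of which 1.02% lay inside the ORF, and 26.1% of them fell on a position 97 nt after it. The same position held 21.0% of the 100 ADH2 tags of the other 5 libraries. PCK1 had 95.2% of its 1688 tags in big 1 at a position 31 nt after the ORF, which held 98.2% of the tags in the other 5. Of the 22 genes that stood more than 4-fold above in big 1, 17 had under 10% of their big 1 tags inside the ORF. In some of the 22 the tags of the other 5 libraries lay elsewhere. The share inside the ORF was 1.26% in big 1 and 84% in the others for RGI2, and 11.9% and 55.6% for CTA1. The leading big 1 position of POX1 held 32.4% of its tags there and 0.893% in the others. Fold changes of such genes set tags at unlike positions against each other.

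Adr1 is known to bind promoters of genes for ethanol and fatty acid use at short sites, written here as TTGGAG or TTGGGG and searched on both strands. In a window of 300 bases that ends 100 bases before the start codon, 16.7% of 6001 genes held at least 1 such site, and 11 of 33 genes of the glucose-repressed list did (33.3%). The promoters of ADH2 and POX1, the genes with the largest and second largest fold change, are printed because they are the clearest examples among the genes of big 1. Both come from the RefSeq R64 genome, ADH2 from chrXIII:874438-874737 on the minus strand and POX1 from chrVII:107758-108057 on the plus strand, 5′ to 3′ towards the gene with the matches in capitals.
ADH2: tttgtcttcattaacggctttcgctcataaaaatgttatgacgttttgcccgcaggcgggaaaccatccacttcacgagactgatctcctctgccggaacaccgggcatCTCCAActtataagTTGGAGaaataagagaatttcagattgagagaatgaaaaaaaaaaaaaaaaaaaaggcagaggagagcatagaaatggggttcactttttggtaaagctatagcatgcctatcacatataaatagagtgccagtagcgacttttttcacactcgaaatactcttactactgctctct
POX1: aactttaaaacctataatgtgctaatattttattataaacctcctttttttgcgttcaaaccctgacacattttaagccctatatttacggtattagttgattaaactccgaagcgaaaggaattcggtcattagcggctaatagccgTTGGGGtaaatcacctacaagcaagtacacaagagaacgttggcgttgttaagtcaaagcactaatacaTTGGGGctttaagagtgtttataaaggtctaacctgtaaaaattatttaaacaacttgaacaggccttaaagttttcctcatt
In ADH2 the matches began 291 and 277 bases before the start codon and faced each other as an inverted repeat, CTCCAA and TTGGAG. In POX1 the matches began at 252 and 183 bases before the start codon, in the same direction. At least 2 sites occurred in 1.87% of the 6001 windows and in 5 of the 33 of the glucose-repressed list. A match describes these letters only, and the PCK1 window held 0 of the sites.

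Unsorted 2 stood apart in the phosphate genes. Of 19 tested, 5 (26.3%) were more than 2-fold above each of the other 5 libraries in unsorted 2, beside 1.40% of all genes. PHO84, the high-affinity phosphate transporter, was at 1.13, 206 and 37.9 CPM in unsorted 1 to 3 and at 2.33, 16.7 and 63.1 CPM in big 1 to 3. PHO89, the sodium-coupled phosphate transporter, was at 0, 58.4 and 3.96 CPM against 3.33, 0 and 4.96 CPM. SPL2, a small regulator of low-affinity phosphate uptake, was at 8.69, 218 and 33.0 CPM against 14.3, 28.6 and 61.8 CPM. In each of these genes unsorted 2 was the highest library, and apart from it the groups overlapped.

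VTC1, a subunit of the complex that makes vacuolar polyphosphate, was at 87.5, 381 and 79.1 CPM in unsorted particles and at 73.5, 102 and 114 CPM in big colonies. The acid phosphatase PHO12 was at 254 CPM in unsorted 2 and at 0.67 to 83.0 CPM in the other libraries, a value that can hold tags of its near-identical copy PHO11. The list's median was -0.32 with all 6 libraries and 0.34 without unsorted 2. Libraries also differed within a group apart from unsorted 2: big 3 lay above big 1 for PHO84, SPL2 and VTC1. In the common scaling of 14 libraries, PHO84 ran from 196 to 371 CPM in the 4 batch cultures, a range that held the unsorted 2 value of 211 CPM.

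**Figure D4:**
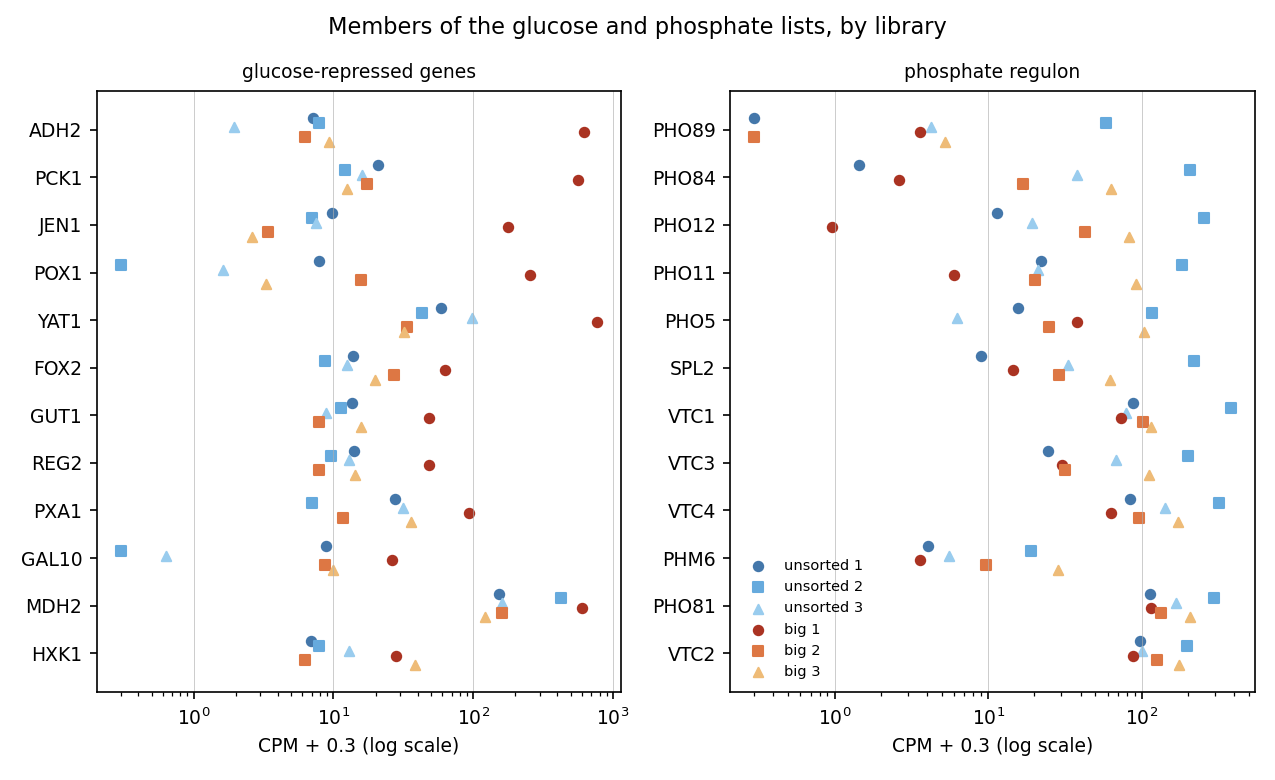
Levels of 12 genes each of the glucose-repressed list (left) and the phosphate list (right), in CPM plus 0.3 on a log scale, 1 symbol per library. The genes shown were picked after their values had been seen, which favours the libraries that stand apart. On the left big 1 is the dark red circle, for ADH2 at 619 CPM. On the right unsorted 2 is the mid-blue square, for PHO84 at 206 CPM. Over all tested members, 10 of 22 glucose-repressed genes stood more than 2-fold above the other libraries in big 1. Of the phosphate genes, 5 of 19 did so in unsorted 2.

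Pho4 is known to bind the site CACGTG. It occurred in 4.55% of the 6001 promoter windows and in 15 of the 22 windows of the phosphate list (68.2%). The windows of SPL2 and PHO89 are printed because both genes stood apart in unsorted 2 and held the site. They are chrVIII:375201-375500 on the minus strand for SPL2 and chrII:798623-798922 on the minus strand for PHO89, R64, with CACGTG in capitals.
SPL2: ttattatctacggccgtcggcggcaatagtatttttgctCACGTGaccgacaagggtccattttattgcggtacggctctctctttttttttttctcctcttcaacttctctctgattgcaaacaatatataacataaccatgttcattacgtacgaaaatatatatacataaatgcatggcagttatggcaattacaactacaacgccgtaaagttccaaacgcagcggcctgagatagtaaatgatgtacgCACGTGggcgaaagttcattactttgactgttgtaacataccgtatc
PHO89: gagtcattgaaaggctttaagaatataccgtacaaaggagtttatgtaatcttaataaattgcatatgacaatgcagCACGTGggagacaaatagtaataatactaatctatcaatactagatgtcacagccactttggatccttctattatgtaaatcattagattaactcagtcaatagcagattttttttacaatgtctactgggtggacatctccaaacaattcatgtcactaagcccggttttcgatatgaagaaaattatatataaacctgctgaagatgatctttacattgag
The matches began 361 and 147 bases before the start codon in SPL2 and 323 bases before it in PHO89. The PHO84 window held 0 such sites, which says nothing of sites nearer to or farther from the gene.

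Unsorted 2 also held the highest values of single genes outside these lists. PTC5, a mitochondrial protein phosphatase, was at 57.8, 1150 and 52.1 CPM in unsorted 1 to 3 and at 58.6, 63.3 and 39.3 CPM in big 1 to 3. Of its 1358 tags in unsorted 2, 61.5% lay at a position 279 nt after the ORF that held 0% of the 1002 tags of the other 5 libraries. NOC2, a ribosome assembly factor, was at 17723 CPM in unsorted 2 and at 702 to 4340 CPM in the others. Of its 20932 tags there, 95.9% lay at a position 2069 nt before the end of the ORF, which also held 81.1% of the tags in the other 5 libraries. For NOC2 the value is therefore a count of 1 position inside the coding region and not of transcript ends after the gene.

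Iron genes were highest in unsorted 1. Of 29 genes of the iron regulon tested, 5 (17.2%) stood more than 2-fold above the other libraries in unsorted 1, beside 1.60% of all genes. SIT1, the siderophore transporter named above, was at 202, 33.0 and 87.3 CPM in unsorted 1 to 3 and at 38.3, 28.4 and 35.4 CPM in big 1 to 3. ARN2, another siderophore transporter, was at 355, 83.0 and 298 CPM against 90.5, 85.2 and 134 CPM. MRS4, the mitochondrial iron carrier, was at 96.6, 11.01 and 20.4 CPM against 12.3, 11.7 and 15.5 CPM. For SIT1 and ARN2 unsorted 1 and 3 lay above the big libraries and unsorted 2 lay among or below them.

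Most iron genes had lower means in big colonies. Of the 29 genes, 24 were lower in the mean of big colonies, with a median of -0.60. Without overlap, 0 were higher and 0 lower, beside 4.22% and 3.27% of all genes. A list of 29 genes is too short to set a count of 0 apart from those shares. FET3, the iron oxidase of the plasma membrane, was at 217, 75.4 and 67.6 CPM against 81.5, 68.8 and 54.9 CPM. FTR1, its partner in high-affinity iron uptake, was at 222, 218 and 160 CPM against 235, 115 and 174 CPM (-0.20 ± 0.34, SE). Without unsorted 1 the log2 fold change of SIT1 went from -1.67 to -0.86. The median of the list stayed negative in each alternative, from -0.73 to -0.38, the latter without unsorted 1. The summed level of the list was 2603, 1846 and 2033 CPM in unsorted 1 to 3 and 1657, 1329 and 1590 CPM in big 1 to 3.

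Genes of mating and of the cell cycle were read for cell identity. Of the 7 a-cell genes, 6 were higher in the mean of big colonies, with a median of 0.77 (0.22 without big 2 and 1.23 without unsorted 2). Without overlap, 1 was higher, ASG7 (14.3% of the list, against 4.22% of all genes). MFA1, which encodes the a-factor pheromone, was at 127, 251 and 169 CPM in unsorted particles and at 169, 491 and 426 CPM in big colonies (0.99 ± 0.42, SE), with unsorted 2 above big 1. STE2, the receptor for alpha-factor, was at 288, 171 and 148 CPM against 214, 348 and 239 CPM. Of the alpha-cell genes only SAG1 had enough tags to be tested, at 0.26 to 8.24 CPM in the 6 libraries. The histone H4 gene HHF1 was at 590, 549 and 456 CPM against 782, 1310 and 871 CPM (0.89 ± 0.32, SE). HHF1 alone of 10 histone genes was free of overlap (10% of the list, against 4.22% of all genes higher). The median of the histone list was 0.15 (0.00 without unsorted 3), and that of 39 genes of the G1 and S phases was -0.06 (-0.22 without big 1 and 0.02 at the highest over the alternatives). The median of 27 genes of the G2 and M phases was -0.17 (-0.05 without big 2).

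Among the remaining central pathways, glycolysis and fermentation had a median of -0.05 over 21 genes (0.10 without unsorted 2), with TPI1, triose phosphate isomerase, at 528, 1245 and 924 CPM against 1087, 1253 and 1224 CPM. The pentose phosphate pathway had a median of 0.54 over 11 genes (-0.16 without big 1), 2 of them higher without overlap (18.2%, against 4.22% of all genes). They were TAL1, transaldolase, at 45.4, 51.6 and 88.7 CPM against 91.2, 95.8 and 96.2 CPM, and SOL3, a lactonase of the pathway, at 119, 116 and 94.3 CPM against 176, 173 and 127 CPM. Stress-induced genes had a median of 0.19 over 53 genes, which was -0.07 without big 1. Heat shock genes and chaperones had a median of -0.26 over 31 genes (-0.01 without unsorted 1). Ergosterol synthesis had -0.16 over 25 (-0.37 without big 2 and -0.02 at the highest over the alternatives). The proteasome had -0.10 over 39 genes (0.06 without unsorted 3) and amino acid synthesis under general control -0.08 over 51 (0.07 without unsorted 2). ACT1, the actin gene often used as a reference, was at 4769, 8830 and 6501 CPM in unsorted particles and at 10081, 6871 and 5524 CPM in big colonies (0.16 ± 0.40, SE).

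The position of the 3′ end was compared as well, because the same tags show where a gene's transcripts end. The test covered 2461 genes, each with 50 or more tags in every library. The mean distance of the tags from the end of the ORF was tested with limma. At an adjusted p of 0.05, 0 genes passed, a share of 0.0%, with 59 at an unadjusted p under 0.05 (2.40%). The median size of a shift was 5.73 nt its 95% interval reached a median of 22.6 nt to either side, and for 1594 genes (64.8%) the interval lay within 50 nt in either direction.

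The 3 genes with the smallest p in that test are given as values, positive after the end of the ORF and negative before it. The mean position of the MAG2 tags was 50.2, -49.5 and 71.8 nt in unsorted 1 to 3 and -195, -137 and -180 nt in big 1 to 3, from 51 to 214 tags per library. RRP12, an export factor of ribosomal subunits, went the other way, by 126 nt with an interval of 61.6 to 190 nt. RRP12 had 68 to 231 tags per library. YBR219C was further by 24.3 nt, and its mean position lay inside the ORF, from -359 to -322 nt, in the 6 libraries. In these 3 genes the groups did not overlap, which picking them by p favours, and the adjusted p was 0.998 for each (limma, Benjamini-Hochberg).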

How the data were processed

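The authors deposited 1 table of raw tag counts per position and strand (542908 positions), not normalized, in 16 library columns. Named in the submitters' processing notes are CASAVA 1.8.2, GSNAP and builds R64 and sacCer3, without saying what each did. The table's strand was turned before counting, as tested at 1192 isolated genes, where 2.16% to 3.77% of tags lay on the other strand after turning. Each tag was counted for 1 of 6002 protein-coding genes (RefSeq, R64) when it lay in the ORF or up to 400 nt past its end, before the next gene on that strand.

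Counts of the 6 libraries were fitted with edgeR 4.0.16 (quasi-likelihood, robust, TMM, filterByExpr; 4 residual degrees of freedom) and adjusted over all 5071 genes. CPM are scaled with TMM. The SE is the size of the log2 fold change over the root of F. 3′ end positions were tested with limma 3.58.1, weighted by tags up to 200. DESeq2 1.42.0 and limma-voom were alternatives, in R 4.3.3; Python 3.11.15 with pandas 2.3.3, numpy 2.4.6 and matplotlib 3.10.9 did the rest. Named genes are the 10 per direction with the smallest p and a mean of at least 5 CPM, up to 2 per list, and ACT1 and the strain markers; others were picked after seeing values. The members and the 54 lists were chosen with earlier results of these data known. No molecular identifiers are described, so counting error does not cover amplification. Of the other libraries, 8 were used, for levels in a common scaling and in 1 alternative fit of 14 libraries.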

Additional observations from a re-analysis of the deposited data

How the results depend on the processing

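The count of genes past the adjusted threshold was 0 in each of 18 alternatives (smallest adjusted p 0.391), and that of 3′ end positions was 0 in each of 12 (smallest adjusted p 0.071, limma, without big replicate 2). With the replicate number as a block, 0 genes and 0 positions passed. What same-numbered libraries share is not stated in the labels; their deviations correlated by -0.17, 0.04 and 0.25, and they were not treated as pairs. Leaving out each library in turn gave 0 genes past the threshold each time, and 96 to 415 at an unadjusted p under 0.05, the most without unsorted 2. Leaving out big 1 and unsorted 2 together, chosen after seeing the data, gave 0 genes and 485 at an unadjusted p under 0.05 (9.42%). DESeq2 gave 165 such genes and limma-voom with quality weights, also added later, 241. Of 360 fold changes of the 20 leading genes, 359 kept their direction. ACS2 turned to 0.41 when tags were counted no further than 200 nt past the ORF. The depth of unsorted 2, 1506960 tags, was the lowest, and 3 libraries a group limit detection to large changes.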
